A study of Homo sapiens with 12 samples.

Results

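The sites described here are 367 places in the human genome where all 3 peak lists of a BG4 experiment in HEK293 cells had a peak. Their midpoints lay over 1 kb from the centre of every transcription start site (TSS) window of the authors' annotation and outside every RefSeq gene body. Only the midpoint was tested, so a site can run into a gene body. Of the sites, 42 covered a whole RefSeq promoter window, including its 50 bases after the gene start. A peak was kept when it was overlapped by 1 bp or more of a peak in both other lists, and kept peaks were merged into 6081 consensus regions. Of these, 4930 had their midpoint within 1 kb of the centre of a TSS window, 766 lay farther away in a gene body, 18 were mitochondrial, and the remaining 367 (6.04%, 95% Wilson interval 5.46 to 6.66%) are the sites. The sites were thus chosen by the peak positions of all 3 lists, the TSS windows and the gene bodies. Their recurrence in 3 lists, and the position of their midpoints over 1 kb from every window centre and outside gene bodies, are descriptions and not results. Such sites would usually be called intergenic, but most of them lay beside a gene end, and they are therefore called consensus sites outside TSS windows and gene bodies, or sites for short. The number depended on the lists and the overlap: without BioRep1 it was 620, with an overlap of 50% of both peaks 209, and with a limit of 5 kb from every window centre 215.

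G-quadruplexes are structures in which guanine-rich DNA folds back on itself and stacks planes of paired guanines. They are known mostly from promoters of active genes in open chromatin, where nucleosomes are sparse. BG4 is an antibody fragment that binds the folded structure, and HEK293 is an established human embryonic kidney cell line. Away from promoters, such structures have been studied at enhancers, at telomeric repeats and at the genes of ribosomal and transfer RNA.

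HEK293 chromatin was fixed, sheared and precipitated with BG4, and the cells were given no other treatment that the labels name. The 3 biological replicates are called BioRep1 to BioRep3, and for each of them 3 technical ChIP libraries and 1 input were made and 1 peak list was deposited. The lists held 7931 peaks for BioRep1, 11665 for BioRep2 and 13049 for BioRep3. Per library, between 372030 and 846114 reads lay in the TSS windows, which is a part of the library and not its full depth. The replicates differed in total, with 1562658 reads in windows for BioRep1, 2061045 for BioRep2 and 1931653 for BioRep3, so the shortest list came from the replicate with the fewest reads in windows. The titles do not say that the replicates were separate cultures, and SDs and tests over them measure the spread between these samples only. The inputs and the copy number of this cell line were not used here. Intervals on shares cover counting error only.

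The upstream sequences of 4 genes are shown because their sites were among the 8 longest of the 42 that covered a whole RefSeq promoter window (RABEP2 tied in length with NDUFV3), and because they show a promoter without the motif and promoters with it on either strand. Sequences are the 250 bases before the RefSeq 5′ end, written 5′ to 3′ on the strand of the gene, from RefSeq on hg38. Capitals mark a motif of 4 runs of GGG or longer with spacers of 1 to 7 bases, or of 4 runs of CCC or longer where the motif is on the other strand. The MXD1 sequence is chr2:69914859-69915108 on the plus strand, EGLN1 is chr1:231422288-231422537 on the minus strand, VCL is chr10:73997866-73998115 on the plus strand, and RABEP2 is chr16:28925239-28925488 on the minus strand.
MXD1: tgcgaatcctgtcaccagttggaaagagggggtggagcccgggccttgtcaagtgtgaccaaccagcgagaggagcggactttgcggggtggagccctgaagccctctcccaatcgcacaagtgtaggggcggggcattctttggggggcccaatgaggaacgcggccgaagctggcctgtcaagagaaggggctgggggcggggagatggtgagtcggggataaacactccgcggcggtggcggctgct
EGLN1: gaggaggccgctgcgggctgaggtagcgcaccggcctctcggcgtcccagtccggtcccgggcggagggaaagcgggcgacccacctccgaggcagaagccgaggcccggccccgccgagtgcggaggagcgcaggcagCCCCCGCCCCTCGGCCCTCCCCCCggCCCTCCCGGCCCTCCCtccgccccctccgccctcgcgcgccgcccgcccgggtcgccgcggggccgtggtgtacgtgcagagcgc
VCL: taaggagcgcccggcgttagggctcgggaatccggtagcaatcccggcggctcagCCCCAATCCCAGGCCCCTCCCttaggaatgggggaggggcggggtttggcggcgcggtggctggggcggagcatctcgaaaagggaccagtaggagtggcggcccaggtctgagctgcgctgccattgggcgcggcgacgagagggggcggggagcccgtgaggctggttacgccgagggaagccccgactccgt
RABEP2: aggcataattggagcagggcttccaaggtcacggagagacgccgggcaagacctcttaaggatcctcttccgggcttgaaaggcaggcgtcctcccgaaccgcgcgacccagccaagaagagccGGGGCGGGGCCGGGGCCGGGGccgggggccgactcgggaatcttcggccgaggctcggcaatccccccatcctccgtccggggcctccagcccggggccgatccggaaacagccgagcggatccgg
EGLN1 holds 2 such stretches on the template side, VCL holds 1 on the template side and RABEP2 holds 1 on the coding side. MXD1 holds none, although it has 10 separate runs of GGG or longer, no 4 of which lie close enough together. Of the 8 sequences, 3 held the motif and 5 did not, namely MXD1, GM2A, LOC124905136, SRRM1 and COQ8A.

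The lists covered these 4 sites over different lengths. At MXD1, a transcriptional repressor that competes with MYC for its partner MAX, the site spanned 670 bp, of which the peaks of BioRep1, BioRep2 and BioRep3 covered 455, 657 and 665 bp. The site at EGLN1, the prolyl hydroxylase that senses oxygen and marks HIF1A for breakdown, spanned 664 bp and was covered over 145, 489 and 547 bp. The site at VCL, which encodes the adhesion protein vinculin, was covered over 459, 458 and 586 bp of 586 bp. BioRep1 was lowest at MXD1 and EGLN1, while at VCL BioRep1 and BioRep2 were level and BioRep3 was higher. RABEP2, a gene of endosome fusion, had 71, 254 and 509 bp of 509 bp, the widest spread of the 4.

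Most sites lay at the edge of a gene. A gene body lay within 1 kb of the midpoint of 234 of the 367 sites (63.8%, 58.7 to 68.5%), and of 2.80% of the eligible space, which is the 1373 Mb over 1 kb from every TSS window centre and outside every gene body. Within 250 bp the count was 200 sites (54.5%, 49.4 to 59.5%), against 0.683% of that space. Assembly gaps and other space in which no peak could be called were not taken out of the eligible space. The median distance to the nearest gene body was 167 bp, with quartiles at 75.5 and 3361.5 bp, while the median distance to the nearest TSS window centre was 6743 bp. The label intergenic therefore holds for the remaining 133 sites (36.2%, 31.5 to 41.3%), which lay over 1 kb from every RefSeq gene.

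Where the strand of the gene was known, most sites at a gene edge had a 5′ end within 1 kb. At 171 sites (46.6%, 41.6 to 51.7%) a RefSeq 5′ end lay within 1 kb of the midpoint. Another 12 sites (3.27%) lay within 1 kb of a 3′ end and had no 5′ end that close. A 5′ end took precedence, so 12 is not the count of all sites near a 3′ end. The sites of KLHL21 and CORO7-PAM16, counted at a 5′ end, also lay 439 and 77 bp from a 3′ end. The share of the eligible space near 3′ ends was not taken. Space within 1 kb of a known 5′ end made up 0.346% of the eligible space. A further 42 sites (11.4%) lay within 1 kb of a gene whose strand is not in the tables used here, 36 of them within 250 bp and 35 at a protein-coding gene, and 9 sites lay beside a transfer RNA gene. The strand was known for 27305 of 59679 nuclear genes, and for none on chromosome 8, so the count of 5′ ends is a minimum. Of the consensus regions in gene bodies, 365 of 766 (47.7%, 44.1 to 51.2%) had a 5′ end within 1 kb, and the interval overlaps that of the sites.

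The sites at 5′ ends lay close in. Their midpoints had a median offset of -89 bp from the 5′ end, with quartiles at -144 and -52 bp, and 159 of the 171 (93.0%, 88.1 to 95.9%) lay within 250 bp of it. All 171 midpoints lay upstream, which the rule fixed, since it left out gene bodies. For the same 171 sites the nearest TSS window centre was a median of 6535 bp away, with a range of 1001 to 57386 bp. Protein-coding genes held 145 of these 5′ ends (84.8%, 78.7 to 89.4%), and make up 33.6% of all nuclear RefSeq genes. Their share among genes of known strand, from which these 5′ ends come, was not taken, so nothing is read from the difference.

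**Figure D1:**
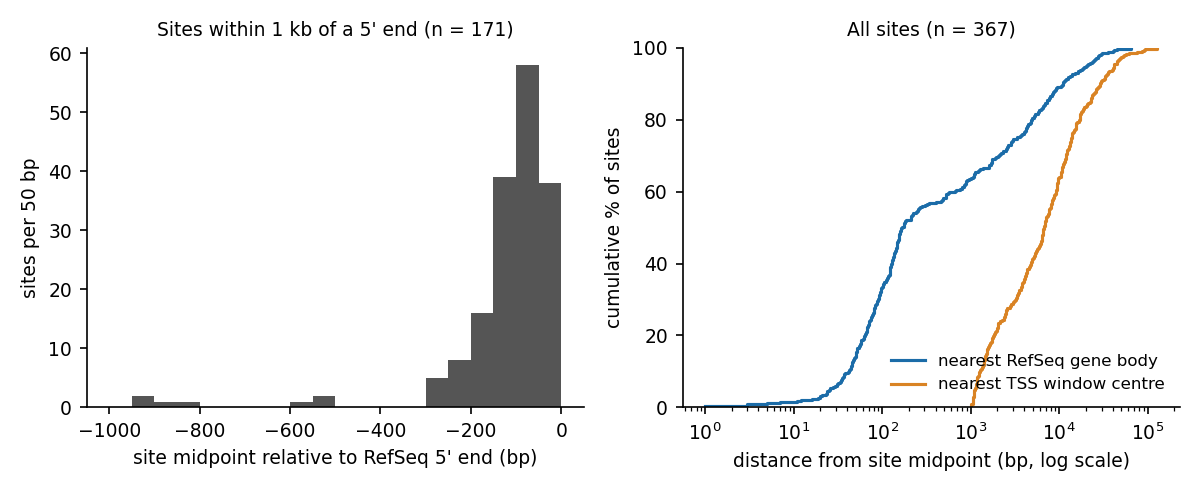
Left, number of sites per 50 bp against the position of the site midpoint relative to the RefSeq 5′ end, for the 171 sites within 1 kb of one. Right, cumulative percent of all 367 sites against the distance to the nearest gene body and to the nearest TSS window centre, on a log axis; the gene-body curve rises between 20 and 250 bp, where the TSS curve is still at 0 because the rule set its start at 1001 bp.

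Genes that are active in every cell were among those with a site at their 5′ end. These genes, and the other groups of genes with a 5′ or 3′ end at a site, were chosen for their known roles after their values were seen. EEF1A1, the elongation factor that brings aminoacyl-tRNA to the ribosome, had a site 174 bp upstream (offset of -174 bp; chr6:73521047-73521364) covered over 132, 307 and 293 bp in BioRep1, BioRep2 and BioRep3. ACTG1, cytoplasmic gamma actin, had 111, 136 and 355 bp at chr17:81512713-81513067. PGK1, a glycolytic kinase on the X chromosome, had 64, 105 and 279 bp at chrX:78103993-78104271. In these 3 genes BioRep1 was lowest each time, and in ACTG1 and PGK1 the peak of BioRep3 filled the whole site. The nearest TSS window centre lay 2413, 1158 and 35575 bp away, respectively. CFL1, the actin-severing protein cofilin, had 253, 287 and 332 bp, and RPL36, a protein of the large ribosomal subunit, had 199, 325 and 318 bp. NCL, the nucleolar protein nucleolin that also binds G-quadruplexes, had 294, 391 and 382 bp with an offset of -180 bp. PTMA, prothymosin alpha, had 385, 394 and 439 bp, or 406 ± 28.9 bp (SD, n = 3), the smallest spread among these 7 genes.

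Genes of the cell cycle and of genome upkeep formed another group. CDK4, the kinase that drives entry into S phase, had a site of 397 bp at chr12:57752330-57752726 covered over 280, 368 and 388 bp, with an offset of -218 bp. PLK1, a kinase of mitosis, had 44, 125 and 195 bp of a site of 201 bp. SPC25, a subunit of the kinetochore complex that holds microtubules, had 152, 160 and 197 bp, and SGO2, which protects centromeric cohesion, had 131, 233 and 323 bp. The order of the lists was the same in these 4 genes, with BioRep1 lowest and BioRep3 highest. MSH6, a mismatch repair protein, had 236, 265 and 337 bp with an offset of -16 bp. RFC5, a subunit of the clamp loader of DNA replication, had 92, 173 and 180 bp. DNMT1, the maintenance DNA methyltransferase, had 127, 188 and 296 bp with an offset of -70 bp, and its nearest TSS window centre was 35391 bp away.

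RNA processing and transcription elongation were represented as well. SUPT5H, the large subunit of the elongation factor DSIF, had 79, 233 and 254 bp, and RTF1, a factor of the elongating polymerase, had 169, 90 and 180 bp. SF3B2, a core protein of the U2 particle of the spliceosome, had 292, 541 and 506 bp, and SRRM1, a splicing coactivator, had 381, 525 and 566 bp. In SF3B2 the peak of BioRep2 covered the whole site of 541 bp and in SRRM1 that of BioRep3 did. DDX17, an RNA helicase, had 190, 313 and 349 bp, and the splicing kinases CLK2 and CLK4 had 219, 423 and 412 bp and 38, 169 and 180 bp. THOC5, a subunit of the complex that couples transcription to mRNA export, had 96, 284 and 219 bp, so that the highest list differed from gene to gene while BioRep1 was lowest in all of these except RTF1.

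Mitochondrial, lysosomal and stress genes made up a further set. SDHAF3, an assembly factor of respiratory complex II, had 108, 132 and 325 bp at chr7:97117441-97117765, and COQ8A, needed for coenzyme Q synthesis, had 465, 509 and 550 bp. HIBCH, an enzyme of valine breakdown, had 117, 400 and 452 bp. BioRep1 was lowest in all 3, by the widest margin in HIBCH. GM2A, the activator protein for lysosomal ganglioside breakdown, had 421, 541 and 656 bp of a site of 656 bp, and IDS, a lysosomal sulfatase on the X chromosome, had 63, 102 and 224 bp. BACH1, a repressor of antioxidant genes, had 228, 250 and 219 bp, and its partner of the small MAF family, MAFF, had 248, 359 and 274 bp. PARK7, a protein that protects cells from oxidative stress, had 256, 327 and 337 bp. TIGAR, a p53 target that lowers glycolysis, had 269, 426 and 446 bp. Factors of development with a site at the 5′ end included FOXD2 with 329, 341 and 536 bp, NKX6-1 with 310, 245 and 318 bp, HOXD11 with 52, 181 and 257 bp and SOX6 with 93, 152 and 113 bp. Among these 4, SOX6 and NKX6-1 did not have BioRep3 far above the rest, and in NKX6-1 BioRep2 was lowest.

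There were 12 sites beyond a 3′ end without a 5′ end within 1 kb. Of these, CTDSP1, a phosphatase of the RNA polymerase II tail, had the one with the greatest mean covered length. It was covered over 382, 480 and 505 bp at 520 bp from the gene. SFN, the 14-3-3 sigma protein that holds cells in G2, had 309, 358 and 404 bp at 805 bp. Among sites beside a gene of unknown strand, CBX8, a chromobox protein of Polycomb repressive complex 1, had the greatest covered length, at chr17:79796934-79797554. The lists covered 613, 597 and 592 of its 621 bp, and here BioRep1 was highest. PPP1CA, a catalytic subunit of protein phosphatase 1, had 312, 386 and 392 bp with the midpoint 86 bp from the gene.

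Transfer RNA genes, which RNA polymerase III transcribes, were neighbours of 9 sites (2.45%, 1.30 to 4.59%), while tRNA genes make up 0.742% of all nuclear RefSeq genes and space within 1 kb of one made up 0.0326% of the eligible space. The site closest to its tRNA gene was that of TRT-CGT2-1, a threonine tRNA, with the midpoint 26 bp from the gene and 108, 108 and 151 bp covered in BioRep1, BioRep2 and BioRep3. TRL-TAA1-1, a leucine tRNA, had the longest of these sites, 460 bp, with 201, 386 and 414 bp. TRE-CTC1-1, a glutamate tRNA, had 36, 129 and 217 bp, and TRI-AAT2-1, an isoleucine tRNA, had 97, 88 and 75 bp. The order of the lists in TRI-AAT2-1 was thus the reverse of that in TRE-CTC1-1. The other 5 were the neighbours TRL-CAA6-1, TRT-TGT2-1, TRR-CCG1-3, TRQ-TTG1-1 and TRR-CCG2-1, at distances of 94 to 487 bp. tRNA genes occur in near-identical copies, and reads can be shared between them. One site lay 856 bp from RNA45SN2, a copy of the ribosomal RNA precursor gene on the short arm of chromosome 21, with 75, 65 and 77 bp. Copies of that gene are near-identical too, so this site is uncertain.

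The promoter sequences under the sites were as rich in G and C as those under consensus regions at TSS windows. Of the sites, 158 overlapped 183 RefSeq promoter windows, each of 300 bases, of 172 genes, and 13 sites overlapped windows on both strands. Some of these windows overlap each other or are identical, as those of CORO7 and CORO7-PAM16 are. The intervals count such windows as separate and are therefore too narrow. Their median GC content was 68.7%, with quartiles at 64.5 and 74.0%, against 68.7% for 5579 promoters under consensus regions near a TSS window and 55.0% for 28959 promoters without a consensus region. The motif, in its GGG or CCC form, was present in 72 of the 183 (39.3%, 32.6 to 46.6%). It was present in 38.8% (37.5 to 40.1%) of the promoters under consensus regions near a TSS window, in 21.9% (21.4 to 22.4%) of those without a consensus region and in 25.0% of all 35116 promoters. The interval of the site promoters thus overlapped that of the former and lay above that of the latter. On the coding strand alone, 42 held the GGG form (23%, 17.5 to 29.6%), and 33 held the CCC form (18.0%, 13.1 to 24.2%). A match describes letters and is no measurement of folding, and promoters without a match can hold runs outside the 300 bases.

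The 133 sites over 1 kb from every gene body had a median distance to it of 5802 bp, with quartiles at 2615 and 11749 bp, and 40 of them lay over 10 kb away. The nearest gene was protein-coding for 83 (62.4%, 53.9 to 70.2%), against 33.6% of all nuclear RefSeq genes. It was a long non-coding RNA for 36 (27.1%, 20.2 to 35.2%), against 30.7%. The farthest was a site of 142 bp at chr7:1369150-1369291, 65138 bp from MICALL2, a gene of endosome recycling. The lists covered 86, 142 and 111 bp of it. The next were 45159 bp from ARHGAP12 (205, 420 and 507 bp covered), 41537 bp from the pseudogene RNF10P1 (24, 169 and 102 bp), 40433 bp from FOXK1 (120, 148 and 276 bp) and 35284 bp from ABHD5 (228, 220 and 294 bp). BioRep1 was lowest in 4 of these 5, and FOXK1, a forkhead factor of metabolism, lay downstream of its site.

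The longest sites were of both kinds. The longest of all spanned 771 bp at chr16:2905341-2906111, 6205 bp upstream of FLYWCH1, and was covered over 586, 752 and 771 bp. Among the 10 longest, MXD1, EGLN1, GM2A, LOC124905136, ABL1 and RAP2A had the site within 1 kb of their 5′ end. FLYWCH1, IGF2BP3 and ZNF648 had it over 1 kb away, and CBX8 had it beside a gene end of unknown strand. IGF2BP3, an RNA-binding protein of embryonic tissue, had 213, 430 and 656 bp at 4019 bp, and ZNF648, a zinc finger gene, had 403, 595 and 559 bp at 24721 bp. ABL1, a tyrosine kinase, had 286, 444 and 601 bp and RAP2A, a small GTPase, had 454, 536 and 600 bp. LOC124905136, a long non-coding RNA gene, had 573, 632 and 622 bp, a mean of 609 ± 31.6 bp (n = 3), and it and CBX8 (601 ± 11.0 bp) varied least between lists, while IGF2BP3 (433 ± 222 bp) and EGLN1 (394 ± 217 bp) varied most.

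Sites were covered over a shorter length than consensus regions near a TSS window in every list. Their median full length was 303 bp, with quartiles at 219.5 and 393.5 bp and a range of 68 to 771 bp. The lists BioRep1, BioRep2 and BioRep3 had median covered lengths of 141, 221 and 279 bp, a mean of 214 ± 69.3 bp (SD, n = 3). Near a TSS window the medians were 176, 261 and 301 bp, a mean of 246 ± 63.8 bp. The difference, sites minus TSS, was -35, -40 and -22 bp, with a mean of -32.3 ± 9.29 bp and the same sign in 3 of 3 lists (exact permutation test over the 3 replicates, two-sided, p = 0.25, the smallest this design allows). Against gene-body regions the difference was -14, -10 and 0 bp (exact permutation p = 0.5), in a design that could not have passed a threshold of 0.05. The covered length of sites at 5′ ends exceeded that of sites over 1 kb from genes by 30, 28 and 6 bp (exact permutation p = 0.25). Covered length comes from the same peaks whose overlap chose the regions, and recurring peaks were longer than the rest. These tests therefore describe the chosen regions only. The spread between lists exceeded all of these differences: BioRep1 covered the least at 290 of the 367 sites (79.0%) and BioRep3 the most at 260 (70.8%). In 7 sites at least 1 list covered 10 bp or fewer. At KLHL21, an adaptor of a ubiquitin ligase in mitosis, the covered lengths were 2, 152 and 205 bp.

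**Figure D2:**
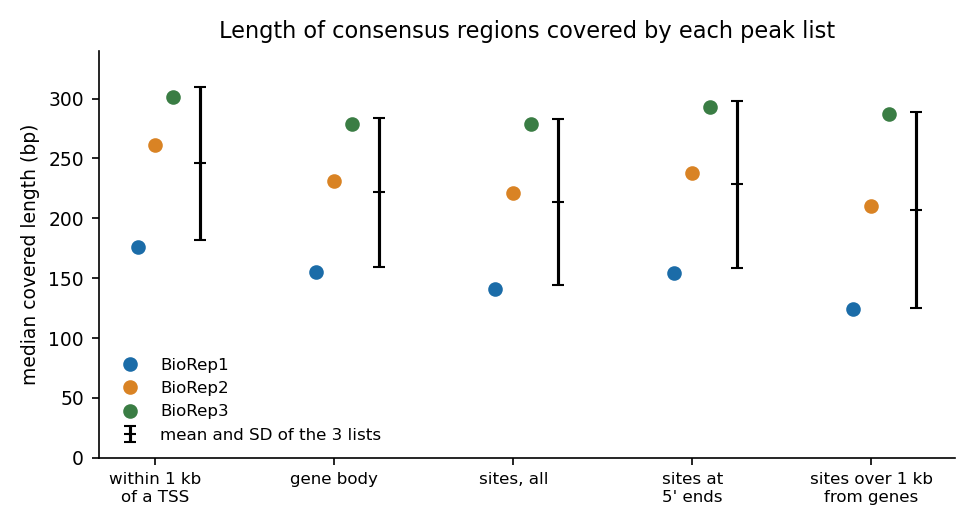
Median length, in bp, of consensus regions covered by the peaks of each list, for regions within 1 kb of a TSS, in gene bodies, all sites, sites at 5′ ends and sites over 1 kb from genes. Points are the 3 lists, and bars are their mean and SD. The lists are ordered BioRep1, BioRep2, BioRep3 in each class. The range from BioRep1 to BioRep3 within a class is larger than the range between classes within a list.

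The share of peaks that recurred was lower outside TSS windows and gene bodies than near a TSS window in each list. The overlap chose the sites, so these shares only describe the lists, and nothing is read from the difference. In BioRep1, 387 of 481 such peaks were overlapped in both other lists (80.5%, 76.7 to 83.8%), against 86.4% of those near a TSS. In BioRep2 the count was 372 of 854 (43.6%, 40.3 to 46.9%) against 56.3%, and in BioRep3 362 of 1067 (33.9%, 31.1 to 36.8%) against 51.1%. Peaks in gene bodies had shares of 82.8, 45.5 and 35.6%. The share of each list that lay outside TSS windows and gene bodies was 6.06, 7.32 and 8.18% for BioRep1, BioRep2 and BioRep3, in the order of the lengths of the lists. Recurring peaks were longer, with median lengths of 129, 207 and 275.5 bp against 64.5, 83 and 90 bp for the rest.

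**Figure D3:**
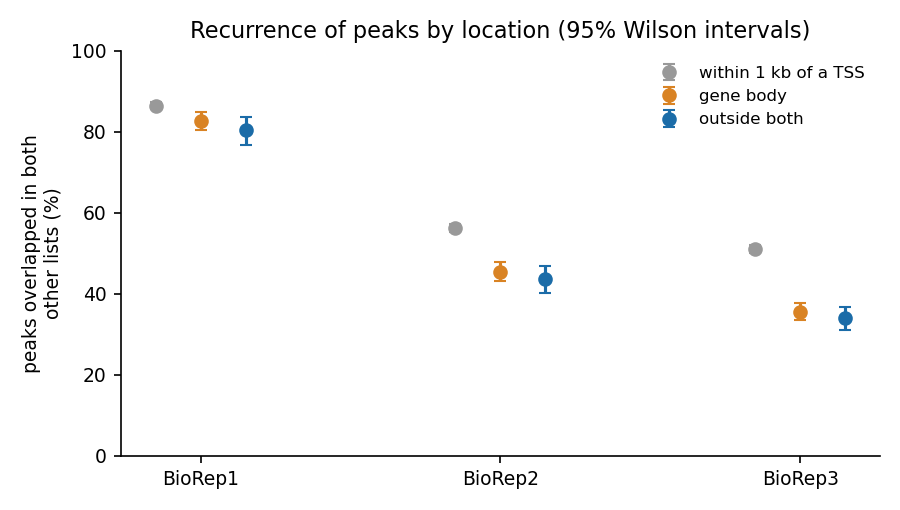
Percent of peaks overlapped in both other lists, by peak list and location, with 95% Wilson intervals. In each of the 3 lists the peaks near a TSS are highest, and those in gene bodies and outside both lie close together, between 80.5 and 82.8% in BioRep1.

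By chromosome, the sites were densest on chromosome 19. It held 38 sites, 10.4% of all of them, or 1.94 per Mb of its eligible space, against 0.267 per Mb over all chromosomes. All consensus regions were many there too: 572 of the 6081 lay on chromosome 19, and 6.64% of these were sites, against 6.04% over all regions. The density of sites on chromosome 19 is therefore not particular to the sites. Chromosome 17 followed with 28 sites (0.964 per Mb), chromosome 16 with 26 (0.661 per Mb) and chromosome 22 with 16 (0.639 per Mb). Chromosome 1 had the most sites, 46, at 0.445 per Mb. Chromosome 18 had 1 site, at MEX3C, an RNA-binding ubiquitin ligase, covered over 39, 352 and 435 bp. Y had no consensus region of any kind, yet its 50.1 Mb are counted in the eligible space over all chromosomes. Of the 38 on chromosome 19, 18 lay over 1 kb from every gene body (0.918 per Mb, against 0.0968 per Mb overall) and 11 lay at a known 5′ end. Chromosome 22 was next for sites away from genes, with 0.360 per Mb. As a share of the consensus regions of a chromosome, sites were highest on X (12 of 127, 9.45%), 22 (16 of 187, 8.56%) and 15 (13 of 155, 8.39%), and lowest on 18 (1 of 64, 1.56%) among chromosomes with a region, and these counts are small. Among the 18 were sites near CCNE1, the cyclin of S-phase entry (445, 436 and 537 bp at 20776 bp), and PALM, a membrane protein of neurons (409, 518 and 575 bp at 4904 bp). The value for chromosome 19 was 3.01 per Mb without BioRep1, 1.17 with an overlap of 50% and 1.26 with a limit of 5 kb. Gene density, GC content and copy number per chromosome were not set against these counts, and their part was not tested.

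**Figure D4:**
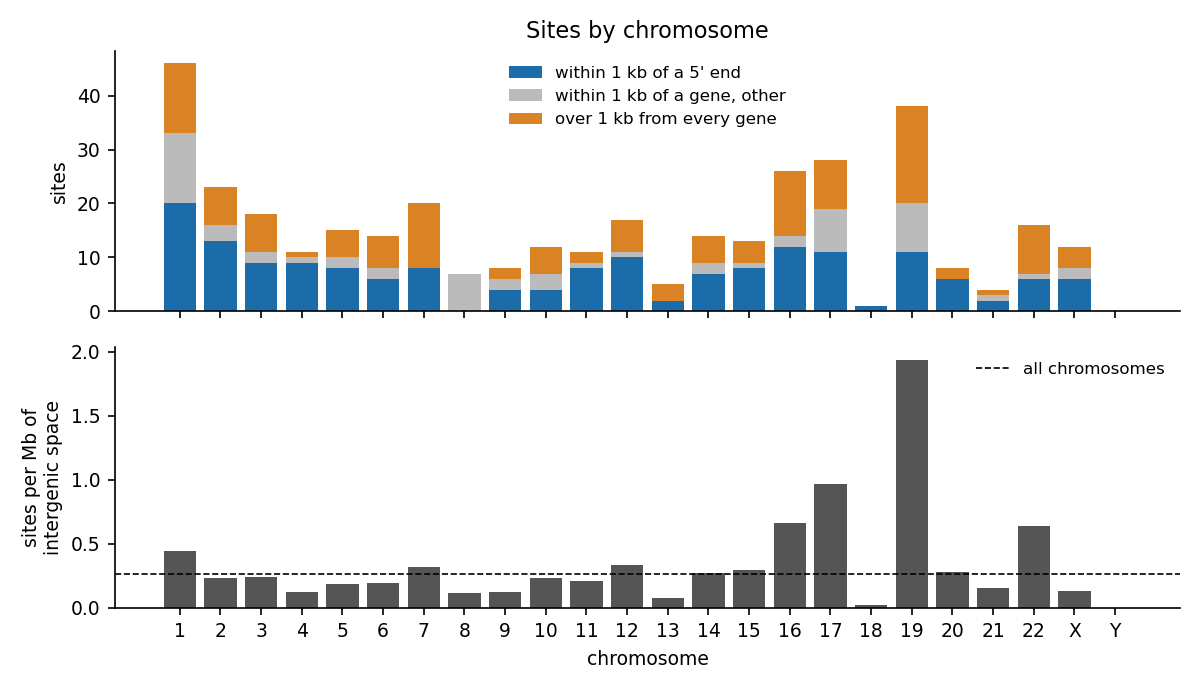
Top, number of sites per chromosome, split into those within 1 kb of a 5′ end, those within 1 kb of a gene in another way and those over 1 kb from every gene. Bottom, sites per Mb of eligible space, with the value over all chromosomes as a dashed line; chromosome 19 stands at 1.94 per Mb and chromosome 18 at 0.0251 per Mb.

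A part of the sites lay toward chromosome ends. Within 5 Mb of the first base or of the last annotated base lay 74 of the 367 (20.2%, 16.4 to 24.6%), against 7.44% of the eligible space. Within 10 Mb it was 118 (32.2%), against 15.5%, and within 1 Mb it was 9 (2.45%, 1.30 to 4.59%), against 1.23%. For the outermost 1 Mb the lower bound of the interval is thus close to the share of the space. The same shares were not taken for consensus regions near a TSS window or in gene bodies. Whether the position is particular to the sites was therefore not tested. Sites over 1 kb from every gene had 34 of 133 within 5 Mb (25.6%, 18.9 to 33.6%) and sites at 5′ ends had 26 of 171 (15.2%, 10.6 to 21.3%), and these intervals overlap.

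Sites seldom came in clusters. Another site lay within 10 kb of 16 of the 367 (4.36%, 2.70 to 6.96%), in 8 pairs and no larger cluster, while 13.5% of the consensus regions near a TSS window and 14.0% of those in gene bodies had one of their own kind that close. The classes differ in their number of regions, on which this share depends, and it was 6.77% without BioRep1 and 7.96% without BioRep3. Counting any consensus region, 68 sites (18.5%, 14.9 to 22.8%) had a neighbour within 10 kb, against 16.3% near a TSS window and 29.9% in gene bodies. Neighbouring sites on a chromosome had midpoints a median of 2.35 Mb apart. Distances within pairs are from midpoint to midpoint. The closest pair, at 396 bp, lay near LOC124903748 on chromosome 16, with 89, 112 and 168 bp covered at one site and 97, 258 and 225 bp at the other. CFL1 and MUS81, a nuclease of stalled replication forks, had sites with midpoints 1229 bp apart and 253, 287 and 332 bp and 190, 278 and 405 bp.

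HES1, the repressor that Notch signalling induces, had sites on both sides of the gene, with midpoints 6568 bp apart. The upstream one, at an offset of -1108 bp, had 251, 316 and 297 bp, and the one beyond the 3′ end had 76, 194 and 398 bp. TUBB4A, a tubulin, and TNFSF9, a cytokine, were the nearest genes of 2 sites on chromosome 19 that lay over 13 kb from both and had midpoints 806 bp apart. Pairs near LOC105378735, LINC01971 and LOC100506236 had midpoints 1166, 3588 and 5393 bp apart.

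The TSS windows nearest to the sites seldom held a peak of their own. The 367 sites had 355 distinct nearest windows, of which 35 (9.86%, 7.17 to 13.4%) had a peak in all 3 lists, against 8.94% of all windows, and 295 (83.1%, 78.9 to 86.6%) had no peak in any list, against 84.2% of all windows. These shares are near the background. For sites at 5′ ends 14 of 169 windows had a consensus peak (8.28%, 5.0 to 13.4%), and for sites over 1 kb from genes 17 of 126 did (13.5%, 8.60 to 20.5%).

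Read density in the nearest windows was above that of other windows and far below that of windows with a consensus peak. CPM is the count in a window divided by all window reads of that library and set to a fixed total. The median over nearest windows was 14.4, 12.7 and 11.8 for BioRep1, BioRep2 and BioRep3, or 13.0 ± 1.35 CPM (SD, n = 3). Other nuclear windows had 9.05 ± 0.479 CPM and windows with a consensus peak 63.9 ± 3.11 CPM. The ratio of nearest to other windows was 1.52, 1.40 and 1.38, a mean of 1.43 ± 0.0757, and was above 1 in 3 of 3 replicates (exact permutation test, two-sided, p = 0.25, the smallest possible). Among windows with no peak in any list the ratio was 1.44 ± 0.0654. At MXD1 the nearest window, ENSG00000059728.10, was 17136 bp from the site and had 12.9, 8.84 and 10.8 CPM, with no peak in any list. At EGLN1 the window was 2598 bp away with 18.8, 21.0 and 14.3 CPM, and at GM2A it was 28796 bp away with 19.5, 22.8 and 37.0 CPM, again without a peak.

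**Figure D5:**
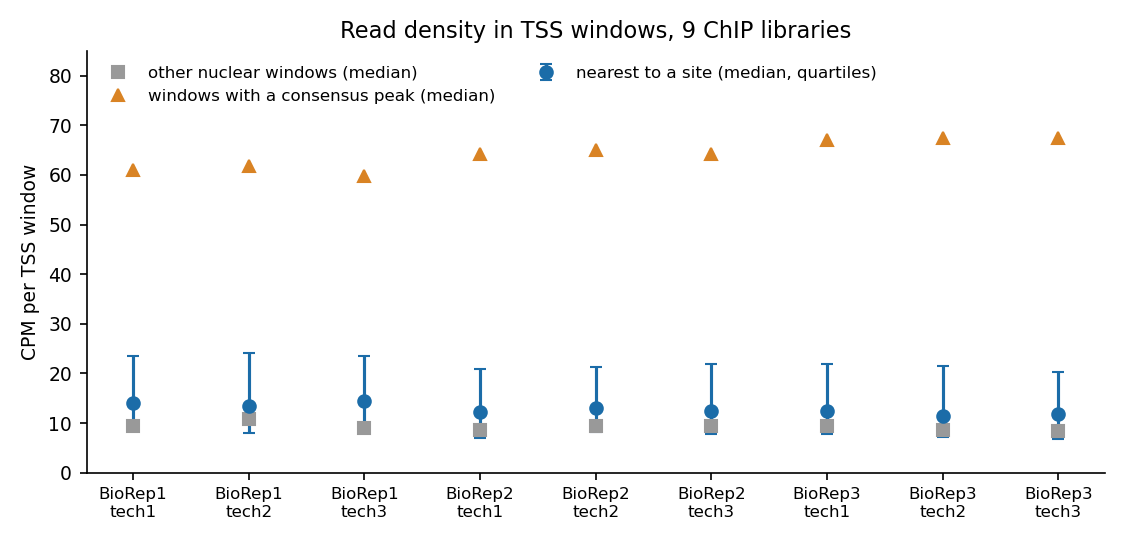
CPM per TSS window in each of the 9 ChIP libraries, for windows nearest to a site (median and quartiles), other nuclear windows (median) and windows with a consensus peak (median). The nearest windows lie slightly above the other windows in every library, and both lie well below the windows with a consensus peak.

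The nearest windows with the highest lowest-of-9 CPM, within 5 kb of the site, belonged mostly to sites over 1 kb upstream of a gene. BAHCC1, a chromatin reader, had a site at an offset of -1379 bp covered over 265, 373 and 404 bp, and its nearest window had 77.9, 97.8 and 109 CPM. MEX3B, an RNA-binding protein, had 402, 450 and 427 bp at -1130 bp and 83.8, 80.5 and 83.4 CPM. SMAD6, an inhibitor of BMP signalling, had 302, 357 and 344 bp and 61.5, 79.8 and 84.4 CPM. In these 3 genes the window stood above the median of windows with a consensus peak, which was 60.5, 64.7 and 66.6 CPM. The windows were chosen for high CPM, so nothing is read from this. EGR1, an immediate early zinc finger factor, had 184, 165 and 200 bp and 57.2, 55.9 and 44.5 CPM. ZIC2, a zinc finger factor of forebrain development, had 104, 236 and 269 bp and 50.2, 54.6 and 61.7 CPM. The windows nearest to the sites of RAP2A, CIMAP1D and CBARP-DT had means of 52.4 ± 2.83, 52.9 ± 5.63 and 57.7 ± 6.65 CPM (n = 3).

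By class, the nearest gene was protein-coding for 272 sites (74.1%, 69.4 to 78.3%), against 33.6% of all nuclear RefSeq genes, a long non-coding RNA for 70 (19.1%, 15.4 to 23.4%) against 30.7%, and a pseudogene for 12 (3.27%) against 26.1%. A microRNA was nearest for 2 sites, at MIR3193 and MIR183, both over 5 kb away. Zinc finger genes of the ZNF family were nearest for 9 sites (2.45%, 1.30 to 4.59%), against 1.17% of genes, and the HOX, FOX, SOX, PAX, GATA and TBX families for 5 (1.36%, 0.583 to 3.15%), against 0.260%. Among the 5 were FOXD2, FOXK1, HOXD11 and SOX6. Histone and olfactory receptor genes were nearest for none, which allows up to 1.04% by the Wilson interval, and make up 0.280 and 1.47% of genes. Protocadherins had 1, PCDH17, with 78, 210 and 175 bp at an offset of -95 bp. Genes differ in length and spacing, so a share of genes is not the share that position alone would give.

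Sites just beyond the limit of 1 kb from a TSS window centre were those of RAP2A at 1001 bp (454, 536 and 600 bp covered) and MEX3B at 1006 bp (402, 450 and 427 bp). The consensus regions just within it were near RPRD2 at 987 bp (164, 178 and 359 bp), GINS2 at 980 bp (242, 231 and 329 bp) and NCOA1 at 953 bp (158, 259 and 216 bp). All 3 of the latter lay under 300 bp from a gene body.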

How the data were processed

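Chromatin of HEK293 cells was precipitated with BG4 and tagmented, per the labels' protocols. The authors deposited 3 peak lists (other values: chromosome, start and end only) and raw read counts in windows of 400 bp, 200 bp to each side of TSSs of GENCODE release 28 (hg38), per the file headers and labels. Per the submitters' processing notes, cutadapt, BWA, Picard, bedtools and MACS2 were used with hg38. How peaks were thresholded and technical libraries joined is not given in the sources used here. If duplicates were removed, the counts of dense windows were capped.

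Peaks overlapping by 1 bp or more in all 3 lists were merged. Genes and promoter sequences (27305 genes, 35116 windows) came from RefSeq tables on GRCh38. Counts were scaled to CPM over reads in windows, averaged over technical libraries, and compared by exact sign-change permutation over 3 replicates (Python 3.11.15, numpy 2.4.6, pandas 2.3.3, scipy 1.17.1, matplotlib 3.10.9). The overlap code was tested on simulated data. No model was fitted. Members and lists were chosen with earlier results of these data known. Named sites were the 10 longest, the clusters, the 5 farthest from genes, 3 on each side of the 1 kb limit, 8 promoter overlaps and 8 nearest windows by lowest CPM; all others were picked with their values in view. A few sites under this rule are left without values here but count in every total. Alternatives were other overlaps, peak lengths, merging gaps, limits and gene sets, and each list left out.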

Additional observations from a re-analysis of the deposited data

How the results depend on the processing

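The sites rest on 3 lists of unequal length, and no threshold, score or input was used to rank peaks. The regions are not replicates, the reads in windows limit the CPM of single windows, and 5′ ends were known for 45.8% of genes. No paired analysis was possible because no groups of samples were compared. The tests of covered length and of read density compare classes of regions or windows within each biological replicate, and so already pair them by replicate. Leaving out each list, with sites then shared by the other two, gave 377 to 620 sites, with 620 without BioRep1. It gave a mean recurrence of 62.3 to 68.2%, a median length of 226 to 283 bp, 1.94 to 3.01 sites per Mb on chromosome 19, 5.22 to 7.96% in clusters, 17.6 to 20.4% within 5 Mb of chromosome ends and 55.2 to 62.7% within 1 kb of a gene body. With an overlap of 50% of both peaks there were 209 sites, a recurrence of 24.7% and 1.17 sites per Mb on chromosome 19, and with a limit of 5 kb from every TSS window centre 215 sites and 1.26 per Mb. With protein-coding gene bodies only, 9.71% lay in clusters and 70.0% within 1 kb of a gene body. The share in clusters was 1.09% with links of 1 kb and 18.3% with links of 100 kb, and the share near chromosome ends was 2.45% at 1 Mb and 32.2% at 10 Mb. The share near a gene body was 58.3% at 500 bp and 69.8% at 2 kb, both chosen after seeing the data. The density ratio of nearest windows was 1.51 for windows within 5 kb. The difference in covered length from regions near a TSS window and the density ratio kept their direction under the alternatives run for them. For the other results the alternatives gave only the value of the sites. Whether their comparisons with other regions, windows or space would reverse was not tested.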
